A study of Arabidopsis thaliana with 4 samples.

Results

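The LCR and SCRL genes of Arabidopsis thaliana encode small secreted peptides rich in cysteine, and the data show where DNA associated with the protein FHY1 lay around them. LCR stands for low-molecular-weight cysteine-rich and SCRL for SCR-like, after SCR, the pollen ligand of self-incompatibility in the cabbage family. Members were the nuclear protein-coding genes whose symbol is LCR or SCRL followed by digits only, which gave 107 of 27444 such genes, 80 of them LCR and 27 SCRL. The chromatin came from seedlings that express 35S:GFP-FHY1 in the fhy1-1 mutant, were 4 days old and etiolated, and then received far-red light for 3 h. The 35S promoter drives the fusion in most cells and at a level other than that of the native gene. There were 3 biological replicates of the chromatin immunoprecipitation (ChIP) and 1 input sample, which was not analysed here. The characteristics name an anti-GFP antibody and the design text an antibody against FHY1.

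Cysteine-rich peptides of plants share a signal peptide and a small core held together by disulfide bridges. Some act as antimicrobial defensins and others as signals between pollen and pistil, and many of their genes are known mainly from flowers and seeds. In self-incompatible relatives of Arabidopsis thaliana, SCR on the pollen binds a receptor kinase of the stigma. FHY1 is the shuttle that brings phyA, the photoreceptor for far-red light, into nuclei, and it is known to associate with light-responsive promoters.

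Replicate 1 had 8423 peaks, replicate 2 had 28170 and replicate 3 had 19150, with a median authors' fold enrichment of 4.06, 3.92 and 4.16. The depth of the libraries is unknown, and the peaks held 4541953, 12651543 and 10390173 tags in that order. A gene was counted as occupied when a peak overlapped it, extended by 1000 bp at both ends, by at least 1 bp. The group was selected on these peak counts, that is, on the number of peaks near its genes in the 3 lists, so the counts are a description and carry no test. Most shares are set beside that of all nuclear protein-coding genes, members included. Most are also set beside other protein-coding genes of like size, meaning within 25% of a member in length and in the summed gap to its coding neighbours. These 6482 genes were averaged per member and then over members.

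Peaks near LCR and SCRL genes were scarce in replicate 1 and common in replicate 2. In replicate 1, 12 of 107 members had a peak within 1000 bp (11.2%, 95% Wilson interval 6.53% to 18.6%), where the background over all protein-coding genes was 40.1%. Replicate 2 had peaks at 66 members (61.7%, interval 52.2% to 70.3%) with a background of 79.0%. Replicate 3 had them at 43 (40.2%, interval 31.4% to 49.7%) with a background of 67.7%. These intervals cover counting error only.

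By the share of genes with a peak within 1000 bp, the members stood below genes of like size in replicate 1 and close by in replicates 2 and 3. By mean number of peaks and covered length they stood lower in all 3 replicates. Genes of like length and gap had a peak in 23.4%, 60.3% and 45.4% of cases in replicates 1, 2 and 3. The members' share was 0.478 times that value in replicate 1, 1.02 times in replicate 2 and 0.885 times in replicate 3. With a window of 500 bp these ratios were 0.309, 0.943 and 0.747. Mean peaks per gene were 0.112, 0.748 and 0.477 for members, 0.268, 0.884 and 0.598 for like genes and 0.489, 1.42 and 1.03 for all genes. Peaks covered 1.97%, 15.5% and 11.3% of the members' extended window, against 8.12%, 20.1% and 16.3% for like genes. All these values use the peaks that chose the group and carry no test. When each list was held to its strongest 8423 peaks by the authors' score, 12, 15 and 21 members were occupied, with backgrounds of 40.1%, 37.5% and 38.3%. The ratio to like genes was then 0.478 in replicate 1, 0.596 in replicate 2 and 0.859 in replicate 3.

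**Figure D1:**
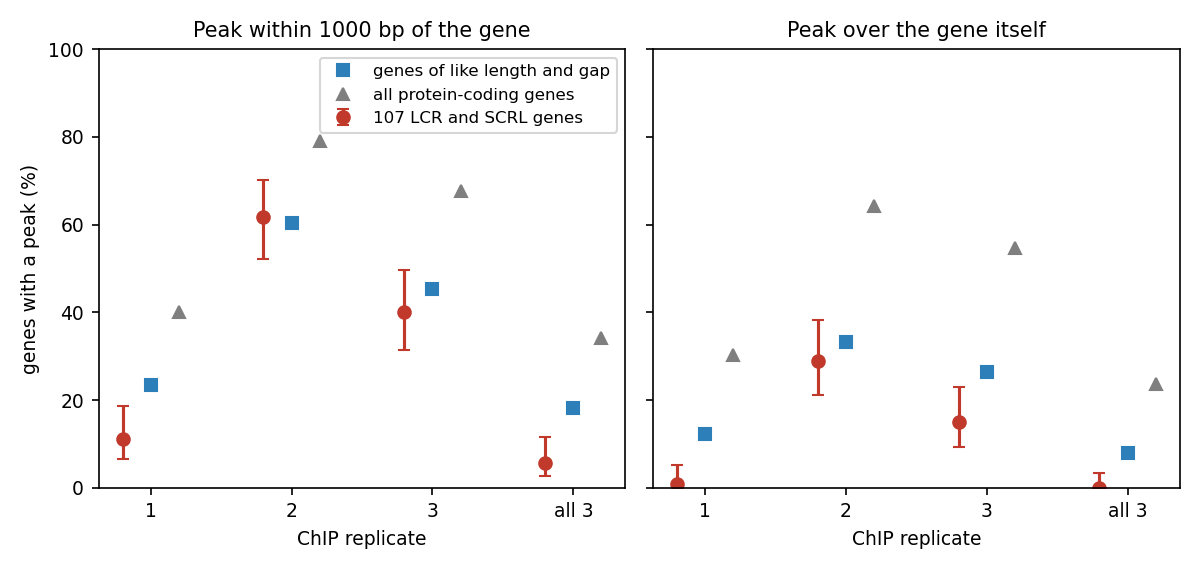
Share of genes (%) with a peak within 1000 bp (left) and over the gene itself (right), by ChIP replicate and for peaks in all 3 replicates. Circles are the 107 LCR and SCRL genes with 95% Wilson intervals, squares are genes of like length and gap, and triangles are all protein-coding genes. Over the gene itself the members stand at 0.935%, 29.0%, 15.0% and 0%.

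Over the gene itself the members' share was 0.0764, 0.870 and 0.564 times that of like genes in replicates 1, 2 and 3. In replicate 2 the members' interval, 21.2% to 38.2%, included the like-gene share. No test was made. A peak lay over 1 member in replicate 1 (0.935%), over 31 in replicate 2 (29.0%) and over 16 in replicate 3 (15.0%). The background over all genes was 30.3%, 64.2% and 54.7%, and like genes had 12.2%, 33.3% and 26.5%. The only member with a replicate 1 peak over the gene was LCR63. No member had a peak over the gene in all 3 replicates (0%, upper Wilson bound 3.47%), where the background was 23.6% and like genes had 8.05%. In at least 2 replicates 12 members did (background 50.8%), and 71 had none in any replicate (background 25.2%, like genes 57.0%).

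Occupancy that recurred in every replicate was uncommon. In at least 2 replicates 42 members had a peak within 1000 bp (39.3%, background 66.2%, like genes 42.4%). Only 6 members had a peak within 1000 bp in all 3 replicates (5.61%, interval 2.60% to 11.7%), with a background of 34.1% and 18.1% for like genes. Without replicate 1, the shortest list, 36 members (33.6%) had peaks in both remaining replicates, against a background of 61.0% and 37.9% of like genes. Without replicate 2 the share in both remaining lists was 6.54%, and without replicate 3 it was 10.3%. Both shares include the members with peaks in all 3 replicates, whose background is given above. Peaks in replicates 1 and 3 but not 2 were found at 0.935% of members, 1.70% of like genes and 1.95% of all genes. Peaks in replicates 1 and 2 but not 3 were found at 4.67%, 2.77% and 3.20% of them. When each list was held to an equal number of its strongest peaks, 1.87% of members had a peak in all 3. No background was computed for that value. The part of list length in the low share in all 3 replicates was not tested. Exactly 2 replicates had peaks at 36 members (33.6%, background 32.1%, like genes 24.2%), 30 of them in replicates 2 and 3. Exactly 1 had them at 31 members (29.0%, background 20.5%, like genes 26.3%), 25 of them in replicate 2. No member was occupied in replicate 1 alone, where the background was 0.900%. No peak in any replicate lay within reach of 34 members (31.8%), which is close to the 31.3% of like genes and above the background of 13.4%.

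Stretches covered by peaks of at least 2 replicates reached 36 members (33.6%, background 60.1%, like genes 38.4%). Stretches covered by all 3 reached 4, namely LCR31, LCR32, LCR19 and SCRL22 (3.74%, background 28.5%, like genes 15.7%). Over the gene itself, stretches of at least 2 replicates lay at 10 members (9.35%, background 46.8%), and those of all 3 at 0 (background 20.4%). For 2 of the 4 stretches within 1000 bp, those at LCR32 and LCR19, the member was the coding gene nearest to the middle. The authors' series list has heights in 3 samples not matched to replicate numbers, and its regions were taken as the 3419 stretches common to these samples. They reached 3 members (2.80%, background 14.4%, like genes 7.50%). The members were LCR31, LCR19 and SCRL22, and no region of that list overlapped a member itself (background 8.44%).

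Averaged over all genes, the share of positions under a peak had a maximum near the gene ends. Neither the curves of the LCR and SCRL genes nor those of like genes had one of that height. At the gene end, peaks covered 16.5%, 36.0% and 31.9% of all genes in replicates 1, 2 and 3, and 0.935%, 17.3% and 8.41% of the members' ends. At the middle of the gene these shares were 6.17%, 11.1% and 8.65% for all genes and 0.935%, 15.0% and 8.41% for members. Like genes had 7.88%, 20% and 16.8% at the end and 7.78%, 15.8% and 13.2% at the middle. Their highest values, 300 bp outside the gene, were 8.55%, 22.2% and 18.1%. In replicate 2 the members stood at 14% 1000 bp outside the gene, below the 17.3% at the end. In replicates 1 and 3 the members' curves were lower at the gene end than 1000 bp away, where they stood at 4.67% and 13.1%. Strand was not used here, so promoter and terminal sides are pooled.

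**Figure D2:**
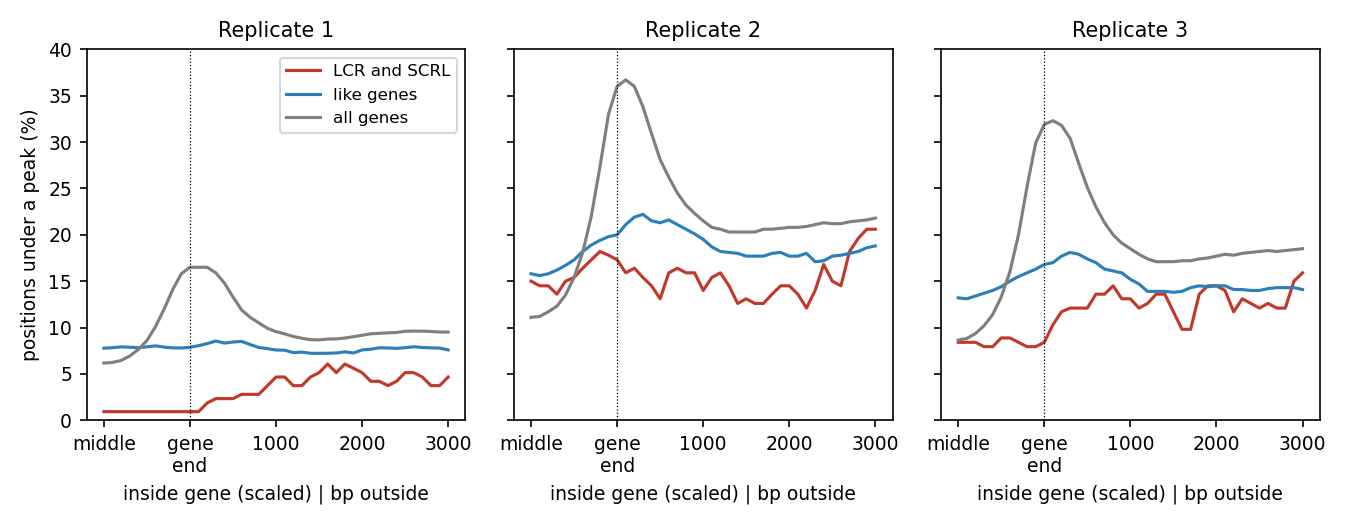
Positions under a peak (%) from the middle of the gene to 3000 bp outside it, both ends pooled, in the 3 replicates; the part inside the gene is scaled to a common width. The grey curve of all genes peaks near the gene end in each replicate, whereas the red curve of LCR and SCRL genes stands at 0.935%, 17.3% and 8.41% there.

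The coding genes that flank the members had lower shares than genes of like size in all 3 replicates, with the widest gap in replicate 1. No interval was computed for these shares, and the differences were not tested. Of 158 such neighbours, which are no members themselves and have a median length of 2295 bp, peaks lay over 29 in replicate 1 (18.4%), 90 in replicate 2 (57.0%) and 79 in replicate 3 (50%). Genes of like length and gap to these neighbours had 28.8%, 62.4% and 52.7%, and the background over all genes was 30.3%, 64.2% and 54.7%. Within 1000 bp, 37, 120 and 89 of the neighbours had a peak (23.4%, 75.9% and 56.3%), and their like genes had 38.9%, 77.5% and 65.8%. The background was 40.1%, 79.0% and 67.7%. Neighbours and members can share peaks, so these shares partly rest on the peaks that chose the group.

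Members are short, with a median length of 584 bp against 2078 bp for all coding genes, and they have a median summed gap of 2491 bp against 1832 bp. Other genes under 500 bp had a peak over the gene in 12.6%, 29.0% and 21.3% of cases in replicates 1, 2 and 3, and of the 34 members of that length 0, 6 and 4 did. Between 500 and 1000 bp other genes had 16.1%, 40.2% and 32.2%, and 1, 19 and 8 of the 60 members did. Annotated pseudogenes lay within 5000 bp of 35.5% of members, 25.7% of like genes and 17.0% of all genes. Among the 69 members with no pseudogene that close, 8, 42 and 28 had a peak within 1000 bp (11.6%, 60.9% and 40.6%), and like genes with none had 26.9%, 67.6% and 51.3%. Among the 38 members with a pseudogene the shares were 10.5%, 63.2% and 39.5%, and those of like genes 16.0%, 43.7% and 28.9%. The part of pseudogene density in the shares of like genes was not tested.

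Peaks within reach of the members had folds in the usual range of each list. There were 11 such peaks in replicate 1, 69 in replicate 2 and 47 in replicate 3, with median folds of 4.53, 3.86 and 4.06. They were narrower, with median widths of 837, 585 and 798 bp against 957, 689 and 859 bp for the whole lists, and held fewer tags, with medians of 304, 272 and 417 against 444, 360 and 452. A member was the coding gene nearest to the middle of 5 of the 11, 41 of the 69 and 20 of the 47 peaks. Counted by gene, 5 members (4.67%), 39 (36.4%) and 19 (17.8%) were nearest to some peak, with backgrounds of 25.5%, 60.7% and 48.6% and like genes at 11%, 37.3% and 25.6%.

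Of the 6 members occupied in all 3 replicates, SCRL22 had the highest fold in replicates 1 and 2, and LCR32 in replicate 3. The highest fold at SCRL22 was 6.96 in replicate 1, 7.54 in replicate 2 and 6.64 in replicate 3. Both of the first peaks, on chromosome 4 from 16102016 to 16102971 with 498 tags and from 16102151 to 16103276 with 922 tags, had HDA14, a histone deacetylase gene, as the nearest gene to their middle. In replicate 3 the highest fold belonged to a peak from 16099852 to 16100649 on the other side, with its middle in ABCI10, a gene of the ABC transporter family. A second replicate 3 peak, from 16101606 to 16103011 with a fold of 5.49, overlapped SCRL22, and its nearest gene was AT4G33467. The stretch under a peak in all 3 replicates ran from 16102151 to 16102971, 199 bp from SCRL22, which has a summed gap of only 268 bp to its neighbours. A series list region from 16102211 to 16102671 had heights of 197, 245 and 301 (mean 248 ± 52.1, SD, n = 3).

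LCR32 had peaks on 1 side of the gene in each replicate, for which it was the nearest coding gene. Their folds were 4.14, 4.07 and 7.26, with 738, 1011 and 1278 tags in replicates 1, 2 and 3. The all-replicate stretch ran on chromosome 2 from 12151941 to 12152926 and ended 211 bp from LCR32, whose summed gap is 5960 bp. The replicate 3 value was the highest fold near any member in that list.

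LCR19 was likewise the nearest gene to its peaks, although they began 757, 588 and 783 bp away. Folds were 4.63, 4.96 and 4.08 and tags 212, 766 and 353. The stretch common to all replicates lay on chromosome 4 from 14701383 to 14702014. In the series list a region from 14701511 to 14701841 had heights of 110, 125 and 121 (119 ± 7.77, SD, n = 3), below the list's median mean height of 167.

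At LCR31 the strongest peak in each replicate lay between the gene and DYL1, which encodes a dormancy-associated protein, with its middle nearer to DYL1. Folds there were 3.42, 4.81 and 6.11 and tags 670, 1265 and 1333, over the common stretch on chromosome 1 from 9935325 to 9936897. On the other side of LCR31, replicates 2 and 3 had a weaker peak with folds of 3.48 and 3.01, and replicate 1 had none. The series list had 2 regions in reach of LCR31. The region from 9935981 to 9936311, nearest to DYL1, had heights of 241, 127 and 220 (196 ± 60.7, SD, n = 3). The region from 9936491 to 9936900, nearest to LCR31, had heights of 195, 124 and 217 (179 ± 48.6, SD, n = 3).

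LCR42 and SCRL12 had peaks in all 3 replicates that did not meet in 1 stretch. At LCR42 the peaks of replicates 1 and 3, with folds of 4.59 and 3.61, lay on 1 side, 11 and 38 bp from the gene. The replicate 2 peak, with a fold of 4.53 and 161 tags, lay on the other side toward LCR39. At SCRL12 the replicate 2 peak overlapped the gene with a fold of 3.59, while the peaks of replicates 1 and 3 lay 812 and 637 bp away with folds of 2.96 and 4.44. The replicate 1 peak of SCRL12 was among the weakest of its list, at the 0.564 percentile of fold.

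**Figure D3:**
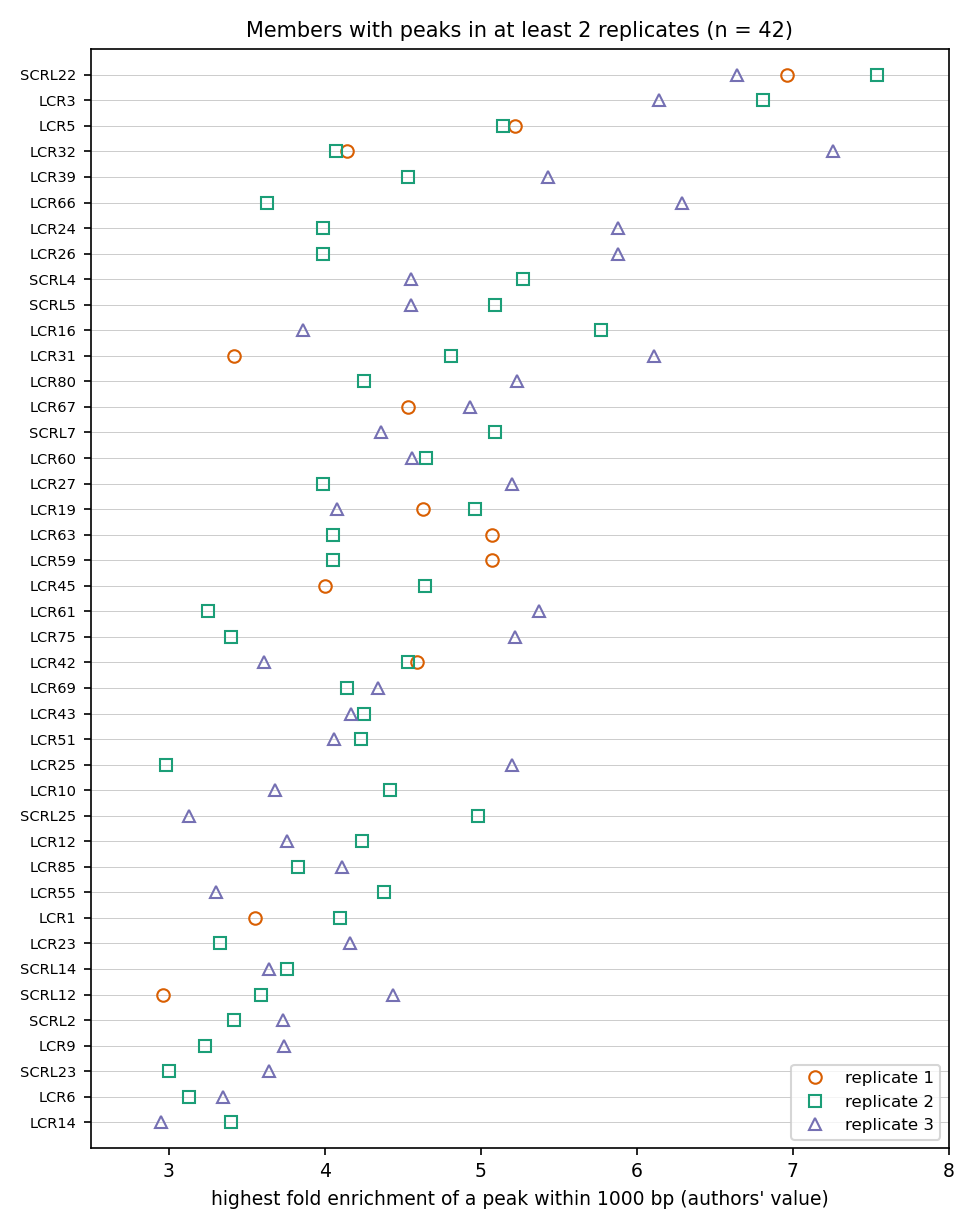
Highest authors' fold enrichment of a peak within 1000 bp, per replicate, for the 42 members with peaks in at least 2 replicates, ordered by their mean. SCRL22 leads with 6.96, 7.54 and 6.64, and LCR14 is lowest with 3.40 and 2.95 in replicates 2 and 3 and no replicate 1 peak.

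Peaks over the gene in 2 replicates were found at SCRL5, SCRL22, LCR3, LCR12, LCR14, LCR26, LCR43, LCR51, LCR61, LCR63, LCR66 and LCR69. All but LCR63 had them in replicates 2 and 3. LCR51 was the nearest gene to the peaks over it, which had folds of 4.23 and 4.06 and 986 and 515 tags, and their common stretch on chromosome 2 ran from 17110767 to 17111697. Replicate 3 had 3 peaks in reach of LCR51, the most of any member in that list. LCR61 was likewise nearest to the peaks over it, at lower folds of 3.25 and 2.97. LCR14 had 3.40 and 2.95, and its replicate 3 peak stood at the 0.133 percentile of that list. LCR12 had 4.24 and 3.76, and LCR43 had 4.25 and 4.17. In LCR63 the peaks came from replicates 1 and 2, with folds of 5.07 and 4.05, 199 and 281 tags and a common stretch on chromosome 4 from 14696117 to 14696630. Its 199 tags were the lowest count among the 11 replicate 1 peaks near members, and replicate 3 had no peak within 1000 bp of LCR63.

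Several of the higher values near members belonged to peaks centred nearer to a neighbour. At LCR3 the strongest peaks, with folds of 6.81 and 6.14 and 1048 and 1069 tags in replicates 2 and 3, had AT5G47170 as the nearest gene. Those over LCR3 itself had 3.59 and 3.61, the second with AT5G47180 as its nearest gene. LCR5 had folds of 5.22 and 5.14 in replicates 1 and 2 from peaks 989 and 984 bp away whose nearest gene was ARF10, for an auxin response factor. The replicate 2 and 3 peaks at LCR66, with 3.63 and 6.29, were centred in AT1G61065. LCR16, with 5.77 and 3.86 in replicates 2 and 3, was itself nearest to its peaks, which lay 686 and 741 bp away. Among members with a replicate 1 peak, those at LCR45 were centred in or next to UBP3, a ubiquitin protease gene (4.00 and 4.64 in replicates 1 and 2), and those at LCR1 in HINT3 (3.55 and 4.10).

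All 5 members named as plant defensins had a peak in reach in at least 1 replicate, where the background was 86.6%. LCR66, LCR67, LCR68, LCR69 and LCR72 carry the synonyms PDF2.4, PDF1.1, PDF2.3, PDF2.2 and PDF2.6, and defensins of this kind are known as antifungal peptides. LCR69 had peaks over the gene with folds of 4.14 and 4.34 in replicates 2 and 3, and 487 and 856 tags. LCR68 had 1 replicate 2 peak over the gene at 4.02, and LCR72 had 1 at 3.86 that overlapped its neighbour LCR73. At LCR67 the peaks of replicates 1 and 3, with folds of 4.53 and 4.93, were 966 and 429 bp away, and their nearest gene was ARAC5, for a small GTPase of the ROP family. None of the 5 was occupied in every replicate. These genes, and the chains described next, were chosen after their values were seen.

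Many members stand in chains, with less than 5000 bp between neighbours. The 47 chained members form 17 chains, and they had a peak within 1000 bp in 8.51%, 63.8% and 44.7% of cases in replicates 1, 2 and 3. The 60 members that stand alone had 13.3%, 60.0% and 36.7%. The background over all genes was 40.1%, 79.0% and 67.7%. In replicate 1 these shares are 4 chained members and 8 that stand alone, and the difference was not tested. In 15 of the chains, with 41 members, no replicate 1 peak was in reach. Neighbours in a chain share peaks, so that 9 peaks of replicate 2 reached more than 1 member.

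The longest chain runs from LCR23 to LCR25 on chromosome 4 and holds 7 members in 11277 bp. It had no replicate 1 peak, 4 replicate 2 peaks and 4 replicate 3 peaks in reach. The peak between LCR27 and LCR25 recurred, with folds of 2.98 and 5.20 and 448 and 571 tags in replicates 2 and 3. LCR26 was overlapped at 3.99 in replicate 2 and at 5.88 in replicate 3 by peaks that did not meet, and the second was nearest to LCR24. LCR21, in the middle of the chain, had no peak in reach.

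SCRL8, SCRL6, SCRL4, SCRL5 and SCRL7 form a chain of 7402 bp on chromosome 1 beside GA20OX4, a gibberellin oxidase gene. Replicate 2 had 5 peaks there, among them a peak over SCRL5 from 22460186 to 22461878 with a fold of 5.09 and 1400 tags. Replicate 3 had 2, with folds of 4.55 and 4.36 and 344 and 1035 tags, both over SCRL5. Replicate 1 had none. SCRL4 had 4 peaks within reach in replicate 2, the most of any member, with folds of 4.14, 5.27, 3.10 and 5.09.

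The chain from LCR61 to LCR19 was the one with most replicate 1 signal. Of its 4 members, 3 had a replicate 1 peak in reach, through 2 distinct peaks, those at LCR63 and LCR19 described above. By contrast the chain from LCR8 to LCR54 on chromosome 3 had 1 peak in reach in replicate 2 and 1 in replicate 3, and LCR52 and LCR54 had none. SCRL11 and SCRL10, a pair on chromosome 4, had no peak within 1000 bp in any replicate.

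**Figure D4:**
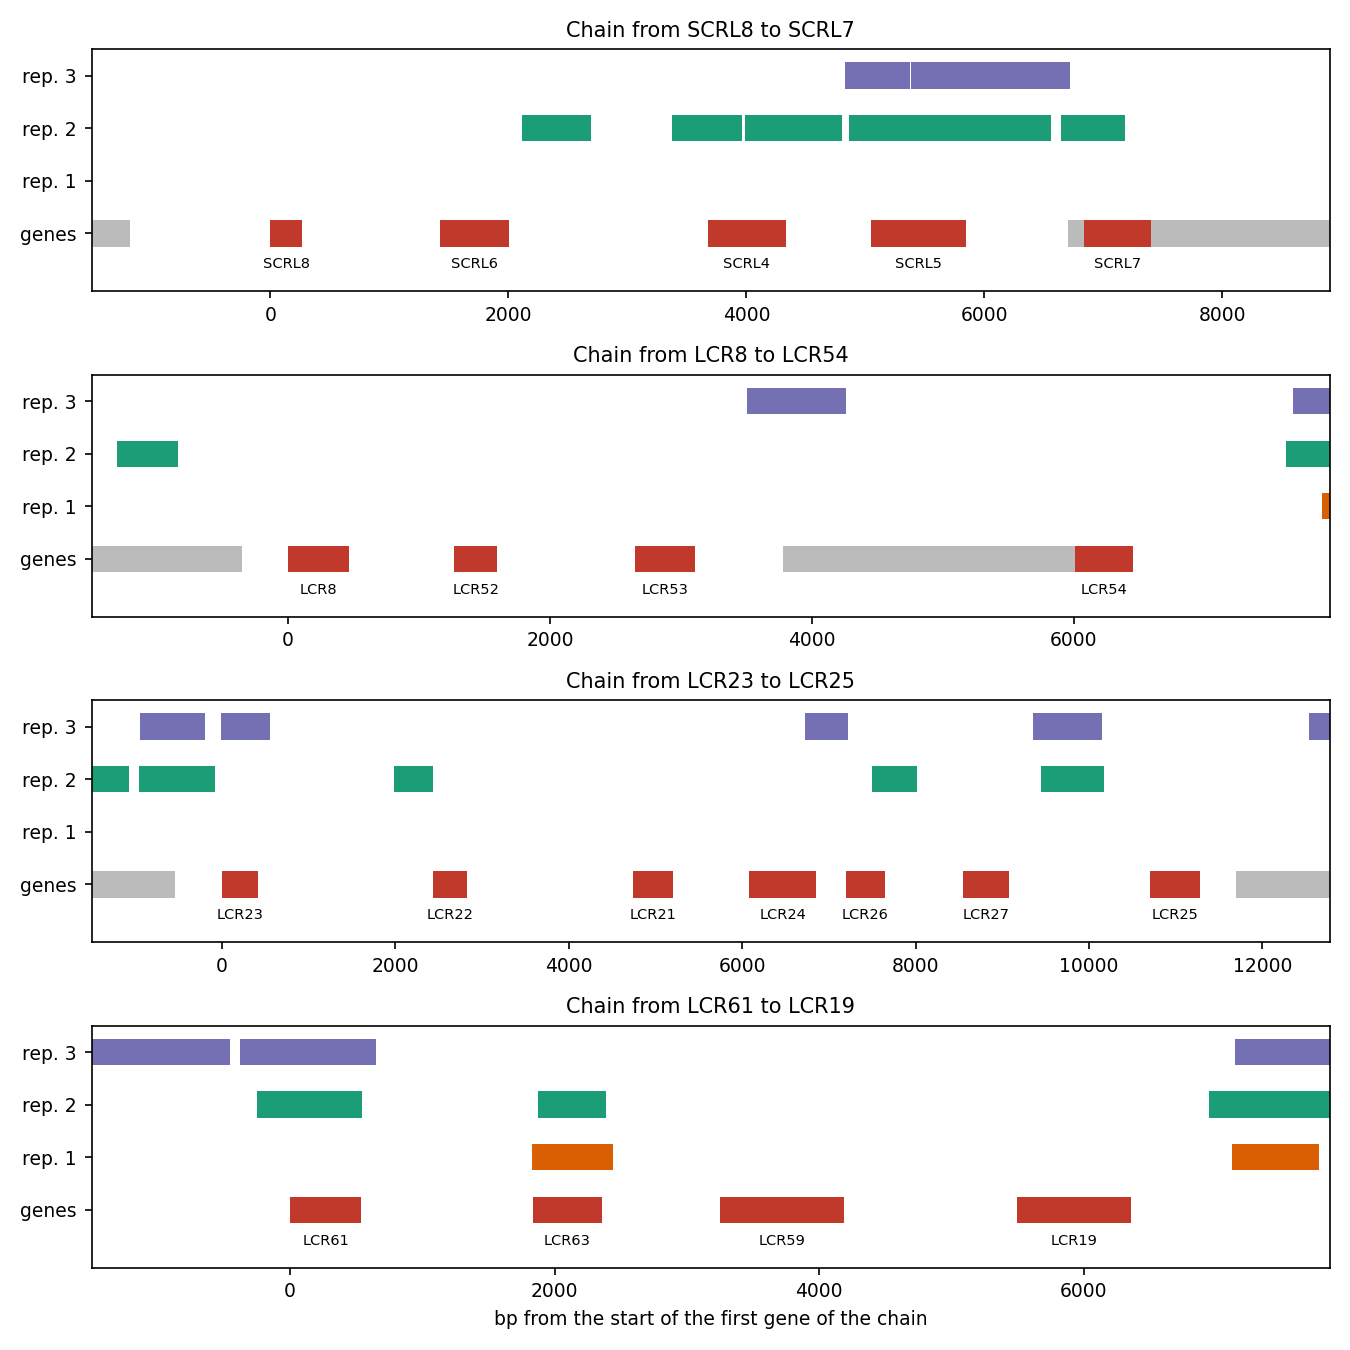
Maps of the 4 chains with 4 or more members, in bp from the start of the first member. Red boxes are LCR and SCRL genes, grey boxes are other coding genes, and the coloured bars above are the peaks of replicates 1, 2 and 3. The chains from SCRL8 and from LCR23 have no replicate 1 peak, whereas the chain from LCR61 has 2.

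The members farthest from any peak were LCR47, SCRL18 and SCRL1. For LCR47, on chromosome 3 with a summed gap of 146368 bp, the nearest peaks were 81752, 69741 and 88002 bp away in replicates 1, 2 and 3. SCRL18 had 31227, 9332 and 31030 bp, and SCRL1 had 11495, 8406 and 17973 bp. The 34 members with no peak in reach had a median length of 536 bp and a median summed gap of 2502 bp, and 11 of them (32.4%) had a pseudogene within 5000 bp. The 67 with peaks in 1 or 2 replicates had 585 bp and 2387 bp, with 25 (37.3%) near a pseudogene. Those just outside the window began at 1040 bp from the nearest peak, and the farthest just inside it lay at 998 bp.

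The share without any peak was higher among SCRL than among LCR genes in these lists. Of the 27 SCRL genes 13 had none in reach (48.1%), and of the 80 LCR genes 21 (26.2%), where the background was 13.4%. In replicates 1, 2 and 3, SCRL genes had a peak in 2, 13 and 10 cases (7.41%, 48.1% and 37.0%) and LCR genes in 10, 53 and 33 (12.5%, 66.2% and 41.2%). The background over all genes was 40.1%, 79.0% and 67.7%. Over the gene in replicate 2 the order was the other way, with 33.3% of SCRL and 27.5% of LCR genes and a background of 64.2%. No test was made of these differences.

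Related genes outside the rule show a spread of occupancy. The 8 plant defensin genes whose symbol begins with PDF had a peak within 1000 bp in 1, 7 and 3 cases in replicates 1, 2 and 3. The background over all genes, for these and the lists that follow, was 40.1%, 79.0% and 67.7%. PDF2.5 was covered in every replicate, with folds of 4.9, 4.43 and 6.0, and PDF1.2, a gene known to respond to jasmonate and ethylene, in replicates 2 and 3 with 3.96 and 4.24. Of the 5 LURE1 genes, which encode pollen tube attractants, 0, 2 and 0 had a peak. LURE1.2 had a replicate 2 peak with a fold of 9.39 and none in the other replicates. PRK6, for the pollen receptor of these attractants, had peaks in all 3 replicates with 3.16, 7.02 and 5.75, none of them over the gene. The S-domain receptor kinase genes RK1, RK2 and RK3, of the family that holds the receptor of SCR, had peaks in replicates 2 and 3 only. MYB98, a regulator of synergid genes such as the LURE1 genes, had 1 replicate 2 peak with a fold of 4.47.

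Other secreted peptide families are given for scale. Of the 34 RALF genes, which encode alkalinizing peptides with a median gene length of 575 bp, 10, 23 and 12 had a peak within 1000 bp (29.4%, 67.6% and 35.3%). All coding genes had 40.1%, 79.0% and 67.7%. Peaks lay over 5, 13 and 8 RALF genes (14.7%, 38.2% and 23.5%), with a background of 30.3%, 64.2% and 54.7%. In all 3 replicates 9 of the 34 were occupied, where the background was 34.1%. The 30 CLE genes, for signalling peptides of meristems, had 8, 25 and 19 within 1000 bp (26.7%, 83.3% and 63.3%). Peaks lay over 2, 17 and 11 CLE genes (6.67%, 56.7% and 36.7%), and 6 of the 30 were occupied in all 3 replicates. For LCR and SCRL genes that number was 6 of 107. These families were not tested against each other.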

How the data were processed

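Per the submitters' processing notes, Bowtie was the aligner and TAIR10 the build. No source used here names the peak caller, its background or its settings. The authors deposited 1 peak list per replicate, with no header, and its columns were read from their layout. The authors' tag counts are whole numbers of tags per peak, not normalized. The authors' score per peak has the layout of minus 10 times the log10 of a p-value, and its lowest value was 50. Each peak also has the authors' fold, a ratio to a background that no source used here names. The authors also gave a false discovery rate in percent, with a highest value of 4.96%. The deposited list of the whole series holds peak heights, a signal of unstated scaling. Each row has a start and an end for 3 samples, and the stretch common to all of them was used as the region. Rows without a common stretch were left out.

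A table of RefSeq genes on assembly TAIR10.1 was used for names, types, neighbours and distances, and no coordinate of it is printed. Peak middles fell inside coding genes in 45.6% to 47.2% of cases per chromosome, and in 59.7% to 65.2% after a shift of 2000 bp either way, a drop that centres on the unshifted coordinates. Overlaps were counted with numpy 2.4.6 and pandas 2.3.3 in Python 3.11.15, and 95% Wilson intervals came from scipy 1.17.1. The counting of overlaps was tested on simulated peaks. Each member had 3 to 864 like genes (median 174).

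Members, gene lists and rules were chosen with earlier results of these data known. Named members had peaks in all 3 replicates, a peak over the gene in at least 2, a series list region, the 3 highest folds or most peaks of a replicate (ties beyond the first were not all named), or the 3 longest distances to a peak. Nothing was tested, because the rule used the peaks. Gene strand and sequences were not used here.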

Additional observations from a re-analysis of the deposited data

How the results depend on the processing

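No paired analysis was possible because there is 1 ChIP condition. The values below are shares of members with a peak in replicates 1, 2 and 3, unless they are named otherwise.

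With the gene body only, they were 0.935%, 29.0% and 15.0%, with like genes at 12.2%, 33.3% and 26.5%, ratios of 0.0764 in replicate 1 and 0.564 in replicate 3, and 0%, 11.2% and 66.4% of members with a peak in all 3, in at least 2 and in no replicate. The background was 30.3%, 64.2% and 54.7% per replicate, and 23.6%, 50.8% and 25.2% for the combined shares. Extended by 500 bp, they were 5.61%, 46.7% and 28.0%, with like genes at 49.6% in replicate 2, and 22.4% in at least 2 and 45.8% in no replicate. In replicate 3 like genes had 37.5%, a ratio of 0.747 (interval 0.544 to 0.992, counting error of members only). The background was 35.7%, 73.3% and 62.2%. Extended by 2000 bp, they were 19.6%, 73.8% and 57.0%, with like genes at 72.9% and 58.1% in replicates 2 and 3, and 16.8% in all 3, 53.3% in at least 2 and 19.6% in none. The background per replicate was 48.4%, 86.6% and 76.2%. With the middle of the peak inside the window, replicate 3 had 28.0%, at least 2 replicates 27.1% and none 42.1%. Like genes had 38.1% in replicate 3, a ratio of 0.737 (interval 0.536 to 0.977), and no background was computed. At a false discovery rate of at most 1%, replicates 2 and 3 had 40.2% and 29.9%, like genes 45.8% and 36.1%, and 26.2% had peaks in at least 2 and 47.7% in no replicate. The background in replicates 2 and 3 was 64.0% and 57.3%. At a fold of at least 5, members had 3.74%, 6.54% and 12.1%, like genes 4.74%, 16.5% and 13.8%, the replicate 2 ratio was 0.398, and 0.935%, 2.80% and 81.3% had peaks in all 3, in at least 2 and in none. Stricter lists lower the share of all genes too, and the background per replicate was 9.09%, 25.3% and 22.7%. With the strongest 8423 peaks per list, replicates 2 and 3 had 14% and 19.6%, like genes 23.5% and 22.9%, the replicate 2 ratio was 0.596, and 1.87%, 12.1% and 69.2% had peaks in all 3, in at least 2 and in none. The background in replicates 2 and 3 was 37.5% and 38.3%. For the stricter lists and the windows other than 1000 bp and the gene body, no background was computed for the shares in all 3, in at least 2 and in none. Against like genes that have a symbol, the like shares were 34.1%, 70.5% and 55.5%, with ratios of 0.329, 0.875 and 0.724. In that setting 3 members had no like gene, so the like shares leave them out while the members' shares do not. Leaving out a replicate, 6.54% (without replicate 2) to 33.6% (without replicate 1) of members had peaks in both others, and 31.8% (without replicate 1) to 55.1% (without replicate 2) in neither. Without replicate 1 the background for peaks in both others was 61.0%. In all, 102 recomputed values, some of them given above, stayed within the interval of the main setting. The causes of the shifts were not tested.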

Other observations

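Genes with an LCR or SCRL name outside the rule had values of their own. SCRL28 and LCR71 are annotated as transcribed pseudogenes. SCRL28 had 1 peak in replicate 1 and 2 in replicate 3 within 1000 bp, all over the gene, and none in replicate 2. LCR71 had none in any replicate. PDF1.4, PDF2.1, PDF1.2 and PDF2.5 carry the synonyms LCR78, LCR70, LCR77 and LCR74. In replicate 2 PDF1.4 had 2 peaks in reach and PDF2.1 had 1, and both had none in replicates 1 and 3.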
